A study of Homo sapiens with 94 samples.

Results

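The metallothioneins are 6 genes here (MT1E, MT1F, MT1G, MT1M, MT1X and MT2A), chosen by symbol out of 20239 gene IDs measured in 94 xenograft tumors. The rule reads the symbol of a gene and no measured value. MT2A was above 0 in all 94 libraries, MT1E, MT1F and MT1X in 93 each, MT1G in 1 and MT1M in none.

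Tumors of NCI-H226, an established human line of malignant pleural mesothelioma with a deletion of NF2, grew under the skin of female SCID mice, which lack mature B and T cells. The mice received K-975, a covalent inhibitor of TEAD transcription factors, once at 30, 100 or 200 mg/kg, or vehicle, or nothing, and NF2 is deleted in the tumors of every group, controls included. Tumors came from 3 studies, taken 1 h, 3-6 h and 24 h after the dose. Dosing was by mouth, in a volume of 20 mL/kg for vehicle and 200 mg/kg and of 10 mL/kg for 30 and 100 mg/kg, so at the lower doses the compound and the smaller volume cannot be told apart in a comparison with vehicle. Groups held 5 tumors of 1 mouse each, except vehicle at 24 h with 4. At 3-6 h, vehicle and each dose came as 2 cage groups with 5 mice in each, and no label tells which was taken at 3 h or at 6 h. At 1 h and 24 h each treatment came as 1 cage group, so treatment and cage cannot be told apart in those studies. Each study also had 5 untreated tumors, all in 1 cage group. Time after the dose cannot be told apart from study.

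Metallothioneins are small proteins rich in cysteine that bind zinc, copper and cadmium. Their genes are known to be induced by metals through the zinc-sensing transcription factor MTF1, which binds metal response elements in their promoters, and also by glucocorticoids, inflammatory cytokines and hypoxia. MT2A and the MT1 genes are expressed in many tissues. MT3 is known mainly from brain and MT4 from stratified epithelium.

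The 6 genes lie within 76.0 kb of chromosome 16 (GRCh38). MT2A spans chr16:56608199-56609497, MT1E chr16:56625475-56627112, MT1M chr16:56632233-56633986, MT1F chr16:56657694-56660698, MT1G chr16:56666731-56668065 and MT1X chr16:56682424-56684196. In GENCODE 29, MT1G is on the minus strand and the other 5 are on the plus strand.

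The coding sequences show how alike the members are. Each is 186 bases long, with 61 codons before the stop, of which 20 code for cysteine. Over the whole coding sequence, identity between pairs of members ranged from 88.7% (MT1F and MT1X) to 95.2% (MT1G and MT2A), with a median of 91.4% over 15 pairs. The first 60 coding bases of each member are printed from GENCODE 29, starting at the start codon, with capitals at bases that differ from MT2A.
MT2A: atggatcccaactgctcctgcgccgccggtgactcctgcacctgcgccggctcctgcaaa
MT1E: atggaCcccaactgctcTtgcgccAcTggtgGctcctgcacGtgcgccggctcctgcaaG
MT1F: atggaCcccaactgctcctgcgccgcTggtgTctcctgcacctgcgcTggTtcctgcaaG
MT1G: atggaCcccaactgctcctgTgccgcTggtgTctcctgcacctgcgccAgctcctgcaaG
MT1M: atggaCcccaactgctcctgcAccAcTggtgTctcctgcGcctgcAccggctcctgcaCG
MT1X: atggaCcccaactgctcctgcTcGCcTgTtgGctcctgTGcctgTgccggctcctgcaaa

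MT1X differed from MT2A at 10 of these bases and MT1F and MT1G at 6 each. Of all windows of 50 bases in the MT1X transcript, 45.1% also occurred in a transcript of another gene. That share was 20.2% for MT1G, 7.05% for MT1M, 5.34% for MT1E, 4.88% for MT2A and 3.59% for MT1F. The MT1X windows were shared with MT1A, MT1F, MT1G, MT1M, MT2A and pseudogenes. How reads with several matches were counted is not given in the sources used here, so the level of MT1X is the least certain of those measured, and the sum of the 6 is given beside single members.

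The RefSeq promoter table (GRCh38.p14) held 2 of the 6 members, MT2A and MT1X. The core of the metal response element was searched on both strands as TGCACNC and TGCGCNC in the 250 bases before each RefSeq start, at base 56608584 for MT2A and 56682470 for MT1X. The GENCODE spans above begin further upstream, so the MT2A windows lie inside the span given for that gene. The core occurred 7 times in the MT2A window and 4 times in the MT1X window, and no match overlapped another. Of 35116 promoter windows of that length, 24.8% held at least 1 core and 0.37% held 4 or more. The upstream stretch of MT1X at chr16:56682220-56682423 (plus strand) is shown because it holds all 4 cores, in capitals.
MT1X: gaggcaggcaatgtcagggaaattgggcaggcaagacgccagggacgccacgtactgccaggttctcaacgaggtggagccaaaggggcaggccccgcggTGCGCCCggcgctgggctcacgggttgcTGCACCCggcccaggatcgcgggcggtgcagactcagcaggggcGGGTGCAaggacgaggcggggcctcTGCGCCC

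For MT2A, the cores nearest to the start are shown in short windows, at chr16:56608487-56608511, chr16:56608521-56608545 and chr16:56608567-56608583, with the core in capitals.
MT2A window a: gcgcggggcGTGTGCAggcagcgcc
MT2A window b: cggggctttTGCACTCgtcccggct
MT2A window c: ttgccgcgcTGCACTCc

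The sequence GGAATG, the core of the TEAD motif, was searched on both strands in the same windows and occurred in neither, against 11.9% of all promoter windows. The core of the antioxidant response element, TGACNNNGC, was searched likewise. It had 1 match in each of the 2 windows, and 10.9% of all promoter windows held at least 1. A match describes letters and is not a measured binding site.

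Values are FPKM, fragments scaled to transcript length and to the mapped total of the library, as deposited. Libraries were enriched with capture probes, so a level also depends on how well a gene was captured. The 3 shallow libraries, with 695, 7163 and 8497 genes at an FPKM of at least 1, were left out of the main comparisons, which rest on 91 libraries with 11299 to 11620 such genes. All 8 mesothelioma markers had a median above 1 FPKM in these 91 libraries, from 1.5 FPKM for UPK3B to 702 FPKM for KRT18. As a check of the compound, 8 YAP1-TEAD target genes were tested against vehicle (limma, threshold of 0.05 for the adjusted p). At 24 h after 200 mg/kg, 4 passed as lower and none as higher, where 7.23% of all genes tested passed. TEAD4 was among these 4, with a log2 difference of -0.74. None of the 8 passed at 24 h after 30 or 100 mg/kg, or at 1 h at any dose. At 3-6 h, 2 passed as lower after 100 mg/kg, 2 after 200 mg/kg and none after 30 mg/kg.

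MT2A was above MT1E in 90 of the 91 libraries, and MT1E was above MT1X in all 91. Over the 91 libraries its level ranged from 122 to 996 FPKM with a median of 433 FPKM, which placed it between rank 33 and rank 681 of all genes within a library. MT1E ranged from 115 to 365 FPKM with a median of 224. MT1X ranged from 17.1 to 185 FPKM with a median of 66.2, and MT1F from 11.3 to 67.9 FPKM with a median of 34.2. The highest level of MT1X was 10.9 times its lowest, against 3.16 times for MT1E.

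The sum of the 6 members ranged from 289 to 1531 FPKM, with a median of 774. MT2A held between 42.3% and 68.7% of the sum, MT1E between 20.4% and 44.3%, MT1X between 2.93% and 12.9%, and MT1F between 1.82% and 8.72%. Shares compare different genes and so carry the capture of each.

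MT1M was listed at 0 in all 94 libraries. MT1G was listed at 5.47 FPKM in 1 untreated tumor of the 1 h study and at 0 in the other 93 libraries. Neither could be tested. Of other metallothionein genes in the table, MT1A, MT1HL1 and MT4 were listed at 0 throughout. MT1B was above 0 in 6 libraries (2.20 to 4.39 FPKM), MT1H in 6 libraries (1.24 to 5.74 FPKM) and MT3 in 5 libraries (1.01 to 1.45 FPKM). A listed 0 does not show that a gene was silent, since the reads behind each value are unknown.

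Neighbouring groups could not be set in a firm order. With cage groups joined, the mean sum ran from 528 ± 186 FPKM (SD, n = 5) in untreated tumors at 3-6 h to 1197 ± 228 FPKM (SD, n = 4) in vehicle tumors at 24 h. Between these, tumors at 30 mg/kg in the 3-6 h study had 593 ± 123 (n = 10), vehicle tumors of that study 720 ± 291 (n = 10) and untreated tumors of the 24 h study 1074 ± 252 (n = 5). Of 14 pairs of neighbours in the order of 15 group means, none differed by more than the larger SD of the pair, for the sum and for each of the 4 members. With 15 means over this range neighbours lie close, so this count cannot tell whether groups further apart differ. With cage groups kept apart, 1 of 18 pairs differed by more for MT2A and 0 for the others and the sum. With cage groups joined, the highest mean was 2.54 times the lowest for MT2A, 2.87 times for MT1X, 2.54 times for MT1F and 1.68 times for MT1E.

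K-975 was compared with vehicle at each dose and time. At 24 h, MT2A, MT1E and MT1X were lower on average at all 3 doses than with vehicle, but no member passed the test at any dose. MT1F was higher on average at 200 mg/kg. Vehicle tumors at 24 h had the highest mean of 15 groups for MT2A, MT1E and MT1X. Their log2 difference from untreated tumors of that study was 0.23 for MT2A, 0.15 for MT1E, -0.08 for MT1X and -0.24 for MT1F, and none passed. In bulk tumors, fewer cells that express a gene and less RNA per cell cannot be told apart. In the 4 vehicle tumors MT2A was at 832, 806, 589 and 851 FPKM. At 30 mg/kg it was at 433, 480, 392 and 424 FPKM in the 4 tumors kept. All 4 were below all vehicle tumors, and the share of all genes with such a gap is not given here.

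At 100 mg/kg, MT2A was at 609, 418, 332 and 676 FPKM in the 4 tumors kept. At 200 mg/kg it was at 279, 635, 560, 531 and 641 FPKM. Below every vehicle tumor lay 2 of 4 tumors at 100 mg/kg and 3 of 5 at 200 mg/kg. On the scale of log2(FPKM + 1), the MT2A difference from vehicle was -0.82 ± 0.34 (SE) at 30 mg/kg, with an adjusted p of 0.393. It was -0.64 ± 0.34 at 100 mg/kg (adjusted p = 0.386) and -0.58 ± 0.32 at 200 mg/kg (adjusted p = 0.276, limma).

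MT1E, next to MT2A in abundance, was at 270, 304, 217 and 340 FPKM in vehicle tumors at 24 h. At 100 mg/kg it was at 225, 134, 150 and 261 FPKM, so the groups overlapped. The difference was -0.59 (95% interval -0.98 to -0.20), with an adjusted p of 0.125, the lowest of any member in a comparison of dose with vehicle. At 30 mg/kg MT1E differed by -0.49 (95% interval -0.88 to -0.10, adjusted p = 0.388). At 200 mg/kg the difference was -0.19 (95% interval -0.56 to 0.18, adjusted p = 0.604).

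MT1X ranged from 62.3 to 185 FPKM in vehicle tumors at 24 h, with a mean of 109 ± 57.0 FPKM (SD, n = 4). The means were 62.9 ± 9.54 FPKM for the 30 mg/kg dose (n = 4), 74.7 ± 23.3 for 100 mg/kg (n = 4) and 64.0 ± 17.5 for 200 mg/kg (n = 5). Each dose group overlapped with vehicle. MT1X differed by -0.67 at 200 mg/kg (95% interval -1.34 to 0.01, adjusted p = 0.238). For 30 mg/kg the difference was -0.66 (adjusted p = 0.549), and for 100 mg/kg it was -0.46 (adjusted p = 0.603).

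MT1F had means of 35.8 ± 15.9 FPKM with vehicle, and, by rising dose, of 34.6 ± 17.1, 35.4 ± 9.21 and 47.7 ± 16.2 FPKM (SD). In the same order its differences from vehicle were -0.07, 0.06 and 0.45, with adjusted p-values of 0.967, 0.962 and 0.419.

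As a background, 7.23% of the 12995 genes tested passed at 200 mg/kg at 24 h, 1.02% at 100 mg/kg and 0.0308% at 30 mg/kg, against 0 of the 4 members at each dose. By rising dose, 2, 1 and 0 members had an unadjusted p under 0.05, as did 1295, 1826 and 2845 of the 12995 genes. The median member difference was -0.57, -0.52 and -0.39 in that order, beside 0.02, 0.03 and 0.04 over all genes tested. The 3 doses share their vehicle tumors. MT2A at 30 mg/kg passed when only the 2 groups were fitted (adjusted p = 0.0180), and MT1E at 100 mg/kg passed without tumor 4 of that dose (-0.75, adjusted p = 0.0348).

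At 1 h and at 3-6 h, no member passed at any dose. At 1 h the member differences lay between -0.41 and 0.09, and none had an unadjusted p under 0.05. The background, by rising dose, was 0%, 0.0077% and 0%, and 572, 650 and 435 of all genes had an unadjusted p under 0.05. At 3-6 h the member differences lay between -0.51 and 0.38, and 1 member at 30 mg/kg, MT1F, had an unadjusted p under 0.05 (limma). The background there was 0.0154%, 0.416% and 0.0693% in the same order. An unadjusted p under 0.05 was found there for 914, 1326 and 937 of all genes.

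Vehicle was also set against no treatment. No member passed in any study, and no gene of the 12995 did (0% at 1 h, 0% at 3-6 h and 0% at 24 h). At 3-6 h, all 4 members were higher with vehicle, by 0.34 for MT1E, 0.39 for MT2A, 0.66 for MT1X and 0.78 for MT1F, and 3 of 4 had an unadjusted p under 0.05. For MT1F, 9 of 10 vehicle tumors were above all 5 untreated tumors, and the share of all genes with such a gap is not given here. The adjusted p of MT1F was 0.848 (limma). In the same comparison 626 of all genes had an unadjusted p under 0.05.

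**Figure D1:**
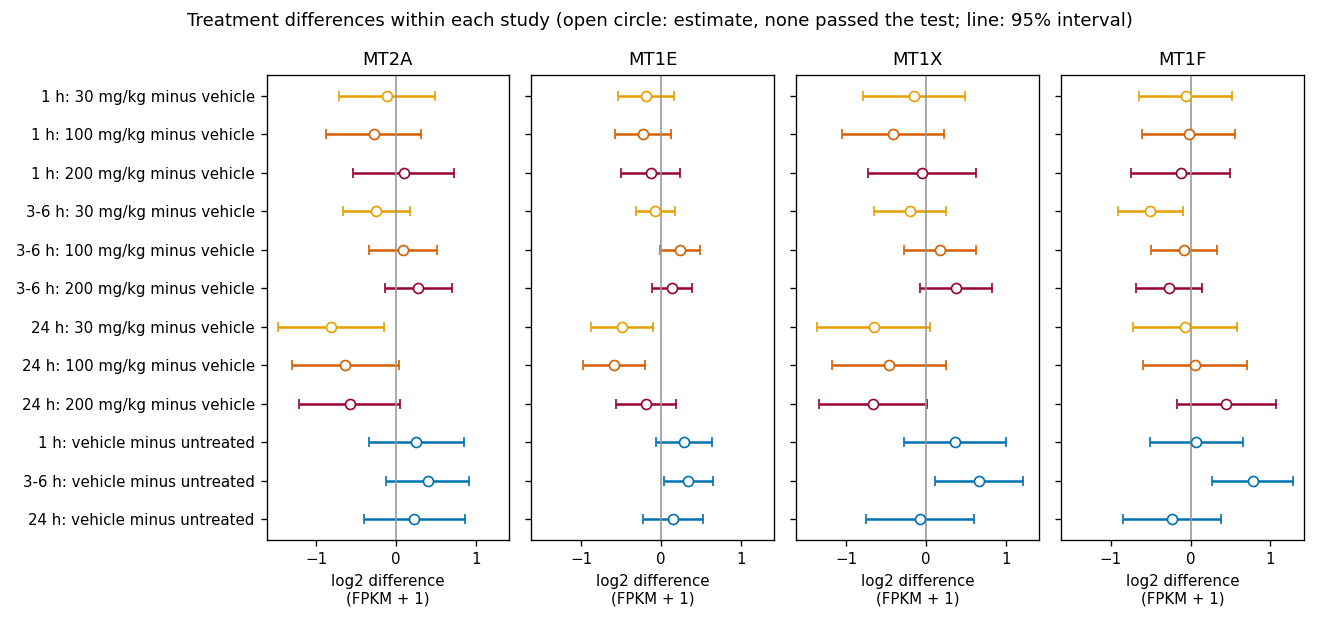
Log2 differences of log2(FPKM + 1) with 95% intervals (horizontal axes) for MT2A, MT1E, MT1X and MT1F in 9 comparisons of a K-975 dose with vehicle and 3 of vehicle with untreated tumors (vertical axis). None of the estimates passed the test, and at 24 h the estimates of MT2A, MT1E and MT1X lie below 0 at each dose.

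The effect of 200 mg/kg was compared between studies. No member passed, with member differences from -1.05 to 0.72 for 24 h minus 3-6 h, where 2 members had an unadjusted p under 0.05 and the lowest adjusted p was 0.165. The background was 1.7% for 24 h minus 3-6 h, 0.569% for 24 h minus 1 h and 0% for 3-6 h minus 1 h. For 24 h minus 3-6 h, 2115 of all genes had an unadjusted p under 0.05.

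The cage groups of one treatment at 3-6 h were compared as well, the later-numbered minus the earlier-numbered. With vehicle, MT1E was at 269 ± 72.5 FPKM in cage 3 and 173 ± 49.4 FPKM in cage 2 (SD, n = 5 each), a difference of 0.65 with an adjusted p of 0.0784. MT2A was at 491 ± 207 and 312 ± 114 FPKM in the same cages. No member passed for vehicle (background 0.331%), 30 mg/kg (0%), 100 mg/kg (0.0462%) or 200 mg/kg (0.0154%). With vehicle, 2 members and 1293 of all genes had an unadjusted p under 0.05. MT1E with vehicle passed without tumor 5 of cage 2 or without tumor 1 of cage 3.

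Metallothioneins differed between studies in tumors that received nothing. The untreated tumors of a study shared a cage group, so study and cage cannot be told apart here. In untreated tumors, all 4 members tested were higher in the 24 h study than in the 3-6 h study, against a background of 4.2% of genes that passed. MT2A was at 903, 461, 508, 671 and 822 FPKM at 24 h. At 3-6 h it was at 291, 363, 122, 475 and 263 FPKM. A single tumor of the 3-6 h study, at 475 FPKM, reached the range of the 24 h study. The difference was 1.23 ± 0.30 (SE), with an adjusted p of 0.00848 (limma).

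MT1X showed the largest difference of the 4. It was at 115, 102, 90.4, 92.3 and 125 FPKM at 24 h. At 3-6 h it was at 21.5, 45.8, 23.1, 63.2 and 36.1 FPKM. The groups did not overlap, but how common this was among all genes is not given here. The difference was 1.54 ± 0.32 (SE), with an adjusted p of 0.00187, and the ratio of means was 2.76.

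MT1F was at 28.7, 41.5, 47.9, 32.0 and 51.2 FPKM in untreated tumors at 24 h. At 3-6 h it was at 17.5, 17.4, 20.1, 21.9 and 16.8 FPKM. These groups did not overlap either, and the difference was 1.04 ± 0.29 (SE, adjusted p = 0.0253, limma). The share of all genes without overlap between these groups is not given here, and 2326 of all genes had an unadjusted p under 0.05. MT1E was at 341, 225, 215, 211 and 288 FPKM at 24 h and at 179, 169, 124, 234 and 136 FPKM at 3-6 h. MT1E groups overlapped, with a difference of 0.61 ± 0.18 (SE, adjusted p = 0.0299).

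The sum was 1074 ± 252 FPKM (SD, n = 5) in untreated tumors at 24 h and 528 ± 186 FPKM (SD, n = 5) at 3-6 h. Untreated tumors at 1 h lay between, at 830 ± 100 FPKM (SD, n = 5). For 3-6 h minus 1 h, the log2 difference of untreated tumors was -0.45 for MT1E, -0.80 for MT2A, -0.95 for MT1X and -1.09 for MT1F. All 4 had an unadjusted p under 0.05 and none passed (background 0.1%, lowest adjusted p = 0.108, limma). In that comparison 1197 of all genes had an unadjusted p under 0.05. For 24 h minus 1 h, no member passed (background 0.0077%) and none had an unadjusted p under 0.05, against 1299 of all genes.

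Of the calls between the 24 h and 3-6 h studies, that of MT1X held without any single tumor, with adjusted p-values up to 0.0165. That of MT2A was lost without untreated tumor 3 at 3-6 h (0.94, adjusted p = 0.0858). That of MT1E was lost without tumor 3 or 5 at 3-6 h (adjusted p = 0.139 and 0.106) and without tumor 1 or 5 at 24 h (0.148 and 0.0916). That of MT1F was lost without tumor 1, 3 or 5 at 3-6 h (0.0562, 0.0534 and 0.0701) and without tumor 3 or 5 at 24 h (0.0653 and 0.0845). With only these groups fitted, MT1X and MT1F passed. With all 94 libraries in the fit, none of the 4 passed, and of 13000 genes 1 did.

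Other measures moved with this difference. The relative depth of the libraries, estimated from values of rarely detected genes, was 0.60 to 1.02 in untreated tumors at 24 h and 1.13 to 1.30 at 3-6 h. The summed level of 7 leukocyte markers was 142 to 267 FPKM at 24 h and 53.3 to 132 FPKM at 3-6 h. Nearly all of it was CD68, a lysosomal protein of macrophages that other cells also express, at a median of 139 FPKM over 91 libraries. PTPRC, the pan-leukocyte marker, had a median of 0.168 FPKM, and the medians of LYZ and CD3E were 0. The sum of 5 endothelial markers, mostly KDR, was 35.3 to 64.1 FPKM at 24 h and 73.4 to 106 FPKM at 3-6 h, and the median of PECAM1 over 91 libraries was 0. The sum of 8 mesothelioma markers was 1940 to 2640 FPKM at 24 h and 2490 to 3110 FPKM at 3-6 h, and that of 5 fibroblast and pericyte markers was 458 to 622 FPKM and 534 to 900 FPKM. These ranges overlapped. Most of the fibroblast and pericyte sum was COL1A1, at a median of 560 FPKM over 91 libraries. The medians of DCN, LUM and RGS5 were 0.717, 0.697 and 1.43 FPKM, and that of PDGFRB was 32.0 FPKM. The part of depth or of any of these marker sums in the metallothionein difference was not tested.

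Vehicle and dosed tumors were compared between the same studies after the values of untreated tumors had been seen. With vehicle, MT2A was higher at 24 h, at 769 ± 122 FPKM (SD, n = 4) against 401 ± 184 FPKM (SD, n = 10) at 3-6 h. The difference was 1.06 ± 0.28 (SE, adjusted p = 0.0294), against a background of 2.39%. MT1X differed by 0.81 (adjusted p = 0.129), MT1E by 0.42 (adjusted p = 0.160) and MT1F by 0.02 (adjusted p = 0.981). The MT2A call was lost when only these groups were fitted (adjusted p = 0.0736), with all 94 libraries (adjusted p = 1) and without any of 5 single tumors. These were vehicle tumors 1, 2 and 4 at 24 h (adjusted p = 0.0992, 0.0902 and 0.0850), tumor 3 of cage 2 (0.0558) and tumor 1 of cage 3 (0.0645).

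No member passed between the 24 h and 3-6 h studies at any dose. By rising dose, MT2A differed by 0.49, 0.34 and 0.20. The highest member difference was 0.74 for MT1F at 200 mg/kg (adjusted p = 0.0995). The background was 0.0308%, 0.646% and 2.76% in the same order. At an unadjusted p under 0.05 there was no member at 30 mg/kg, 1 at 100 mg/kg (MT1E, at -0.41) and 1 at 200 mg/kg (MT1F). Of all genes, 1103, 1602 and 2005 did so by rising dose. Vehicle tumors at 1 h were set against those of the other studies too. No member passed for 24 h minus 1 h (background 0%) or 3-6 h minus 1 h (0.162%). There 0 and 3 members had an unadjusted p under 0.05, as did 889 and 1417 of all genes. Whether the difference between studies itself differed among treatments was not tested.

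Genes of metal handling were read in the same comparisons. Of 25 genes of metal sensing and zinc transport, 20 were tested. In untreated tumors, 24 h minus 3-6 h, 1 passed as higher and none as lower, where 4.2% of all genes tested passed in either direction, with a median difference of 0.10 beside -0.04 over all genes tested. That gene was SLC39A14, a zinc and iron importer of the plasma membrane also known as ZIP14, at 1.11 ± 0.25 (SE, adjusted p = 0.00473). MTF1, the zinc sensor, and SLC30A1, a zinc exporter known as an MTF1 target, differed by -0.05 (adjusted p = 0.895) and 0.06 (adjusted p = 0.855). Of 11 copper-handling genes, all tested, none passed.

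In that comparison, 2 of 9 tested glucocorticoid-responsive genes passed as higher, NR3C1, the glucocorticoid receptor, by 0.52 (adjusted p = 0.0243) and ERRFI1, an inhibitor of EGFR, by 1.32 (adjusted p = 0.0429). FKBP5 and TSC22D3, direct targets of the receptor, differed by 0.08 (adjusted p = 0.887) and -0.05 (adjusted p = 0.969). None of 10 genes of the NRF2 electrophile response passed. The lists were chosen with earlier results of these data known, so their counts are no separate support. With a median difference of 0.97 and a background of 4.2%, 6 of 10 hypoxia genes passed as higher and none as lower. They were NDRG1 (1.70), SLC2A1, the glucose transporter GLUT1 (1.51), LOX, which crosslinks collagen (1.46), VEGFA (1.13), EGLN3, an oxygen sensor (0.98), and BNIP3 (0.80). Of 8 tested YAP1-TEAD targets, AJUBA alone passed, at -0.32.

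With vehicle, 24 h minus 3-6 h, where 2.39% of all genes tested passed, SLC39A14 (0.94, adjusted p = 0.0217) and SLC39A13, a zinc transporter of the secretory pathway (0.61, adjusted p = 0.0144), were higher and SLC30A3, a vesicular zinc transporter, was lower, at -0.64 (adjusted p = 0.0344). At 24 h after 200 mg/kg, where no metallothionein and 7.23% of all genes tested passed, 4 of 10 hypoxia genes were lower than with vehicle, ADM at -1.74, SLC2A1 at -1.09, LOX at -1.05 and EGLN3 at -0.84. Of the zinc list, 1 of 20 genes passed, SLC39A10, a zinc importer, which was lower, at -0.66 (adjusted p = 0.00395). Of the NRF2 list, 2 of 10 genes were higher, among them NQO1, a quinone reductase, by 0.43. By rising dose at 24 h, the median hypoxia difference from vehicle was -0.72, -0.80 and -0.75. In that order 0, 2 and 4 of 10 hypoxia genes passed as lower, where 0.0308%, 1.02% and 7.23% of all genes passed. Between vehicle cages 3 and 2 at 3-6 h, the median hypoxia difference was 0.99. There 3 of 10 passed as higher, where 0.331% of all genes passed.

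The members moved together to unequal degrees within groups. As deviations from the group mean of log2(FPKM + 1) over 91 libraries, MT2A and MT1X had a Pearson r of 0.73, MT2A and MT1E 0.65, and MT1E and MT1X 0.60. MT1F had 0.25 with MT1X, 0.13 with MT1E and 0.12 with MT2A. These are descriptions over libraries that share the scaling of FPKM, and pairs of members also share sequence. Relative depth had an r between -0.13 and 0.09 with each member.

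Other genes were ranked by their likeness to the summed metallothionein level. Of 8878 genes with a mean of at least 5 FPKM, the 10 with the highest r within groups over 91 libraries included CCL20 (0.875), CXCL8 (0.870), SLC39A14 (0.869), TNIP1 (0.866), SOD2 (0.865), ETS1 (0.861), MYO10 (0.841), LOX (0.835) and IL6 (0.833). CCL20 and CXCL8 are chemokines, and IL6 is a cytokine. SOD2 is the mitochondrial superoxide dismutase and TNIP1 an inhibitor of NF-kappa-B signaling. Of all genes ranked, 99% had an r of at most 0.695. Without removal of group means, 8 of these 10 stayed among the 10 highest.

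CCL20 ranged from 20.2 to 488 FPKM over the 91 libraries, and SLC39A14 from 101 to 419 FPKM. At the other end of the ranking stood MYRF, a transcription factor known from oligodendrocytes, at an r of -0.844 and between 209 and 400 FPKM; it was chosen after its values were seen.

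The 10 genes were also read in the tests. They were chosen for likeness to the sum in these same libraries, so their counts are no separate support for the member results. In untreated tumors, 24 h minus 3-6 h, 8 of 10 passed as higher, against a background of 4.2% (limma). Differences ran from 0.89 to 2.43 over the 10, and CXCL8 (2.43, adjusted p = 0.0990) and IL6 (2.28, adjusted p = 0.149) did not pass. At 24 h after 200 mg/kg, 4 of 10 were lower than with vehicle (background 7.23%), among them ETS1 at -1.12, LOX at -1.05 and MYO10 at -0.78. SLC39A14 differed by -0.79 (adjusted p = 0.0579) and IL6 by -1.90 (adjusted p = 0.237). At 100 mg/kg 1 of 10 passed, ETS1 at -1.17 (background 1.02%), and at 30 mg/kg none did (background 0.0308%).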

How the data were processed

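Total RNA of tumors in RNAlater was extracted by the authors with a miRNeasy kit. Libraries were made from 100 ng with KAPA HyperPrep and HyperCap target enrichment. The submitters' processing notes name STAR and GRCh38. The quantifier, the annotation and the treatment of mouse and multi-mapping reads are not given in the sources used here. The deposited values are FPKM, scaled by the authors to gene length and mapped fragments, 1 column per library. They hold no counts, so the depth behind a value is unknown, and no sampling interval or floor was computed. Per-library columns not used numbered 0.

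The first entry of each gene ID was kept (316 of 20555 entries left out), and 32 blank cells were read as 0. Starts in the table count from 0 (14986 of 18254 IDs equal GENCODE 29 after adding 1), and the printed starts count from 1. Its strand column is the same for every gene and was not used.

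The main design kept 91 libraries with at least 10000 genes at an FPKM of at least 1. The test was limma 3.58.1 on log2(FPKM + 1) with trend and robust, 1 coefficient for each of 19 groups, on the 12995 genes that reached 1 FPKM in 4 or more libraries. Each comparison was adjusted over all of these genes (Benjamini-Hochberg), with a threshold of 0.05. At 3-6 h, the mean of 2 cage groups stood for a treatment. Fold changes on this scale understate changes of low genes. The script was tested on simulated data. P-values measure spread between mice of a group. No p was computed for the sum.

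The 6 members, other metallothioneins, genes of the lists that passed beside a member or by role, and the 10 genes most like the sum (Pearson r, mean FPKM of at least 5) are named, except some genes not reported here. The members and lists were chosen with earlier results of these data known. Alternatives were all 94 libraries, a pseudocount of 0.1, no filter, quantile normalization, only the groups compared, eBayes without robust, untreated controls, the highest entry per gene ID and each tumor left out. Those for comparisons between cages and studies, other than all 94 libraries and quantile normalization, and the highest entry per gene ID in all tests were added after seeing the data.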

Additional observations from a re-analysis of the deposited data

Results flagged for a closer look

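In all, 6 values stood apart from their group among 95 groups of values tested for a lone sample (4 members and the sum in 19 groups), where chance gives about 1 in 20. Of these, 3 belong to 1 tumor, the second of cage 5 at 200 mg/kg in the 3-6 h study. It had 996 FPKM of MT2A, against 266 to 405 FPKM in the other 4 tumors of that cage group. Its MT1E was 339 FPKM (others 207 to 243) and its sum 1531 FPKM (others 565 to 749).

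The second tumor of cage 7 at 100 mg/kg in the 3-6 h study was low in MT1E, at 229 FPKM against 266 to 280 FPKM in the others. The third tumor of cage 8 at 30 mg/kg was high in MT1F, at 50.6 FPKM against 14.6 to 23.7 FPKM. The third vehicle tumor at 24 h was low in MT2A, at 589 FPKM against 806 to 851 FPKM.

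The shallow libraries, which the main comparisons do not use, held values above all untreated and vehicle tumors of their study in 2 cases. The library with 695 genes, at 30 mg/kg and 24 h, had 12060 FPKM of MT2A and 0 of every other member, against 461 to 903 FPKM of MT2A in untreated and vehicle tumors at 24 h. The library with 7163 genes, at 100 mg/kg and 24 h, had 147 FPKM of MT1F, against 18.8 to 56.2 FPKM. FPKM of a library with few genes is scaled to the total of those genes, so these values cannot be compared in level with the 91 libraries.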

How the results depend on the processing

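The number of members that passed stayed within 1.5 times its main value in 197 of 205 results under alternatives other than leaving out a tumor. In untreated tumors, 24 h minus 3-6 h, it fell from 4 to 0 with all 94 libraries and to 2 with only the groups compared. With vehicle it fell from 1 to 0 under both. At 24 h and 30 mg/kg against vehicle it rose from 0 to 2 with all 94 libraries (MT1E at -2.02 and MT1X at -1.85, while MT2A reversed to 0.14, with the 695-gene library in the group) and to 1 with only the groups compared. It rose to 2 at 30 mg/kg, 24 h minus 3-6 h, with all 94 libraries, and to 1 in untreated tumors, 3-6 h minus 1 h, with only the groups compared. MT1F at 24 h and 100 mg/kg reversed to -0.18 with untreated tumors as control. The cause was not tested.

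Values of single members kept their direction and their side of the threshold in 140 of 153 results under the other alternatives and in 170 of 196 when a tumor was left out. The 153 include the list of genes most like the sum, which has no direction or threshold and was counted as kept. Leaving out each tumor in turn, 364 of 375 counts held. The range was 1 to 4 in untreated tumors and 0 to 1 in vehicle tumors, 24 h minus 3-6 h, 0 to 1 at 24 h and 100 mg/kg, and 0 to 1 for vehicle cage 3 minus cage 2. MT1F ranged from -0.36 to 0.22 at 24 h and 30 mg/kg, from -0.20 to 0.31 at 100 mg/kg, and from -0.22 to 0.29 with vehicle, 24 h minus 3-6 h, so its sign changed in each. Against vehicle at 24 h, MT1X ranged from -0.87 to -0.35 at 30 mg/kg, from -0.68 to -0.16 at 100 mg/kg and from -0.88 to -0.36 at 200 mg/kg, each nearest to 0 without the vehicle tumor with replicate number 4. At 200 mg/kg, MT2A ranged from -0.71 to -0.37, MT1E from -0.31 to -0.08 and MT1F from 0.19 to 0.70. In untreated tumors, 24 h minus 3-6 h, MT1E ranged from 0.50 to 0.73, MT1F from 0.94 to 1.15, MT1X from 1.38 to 1.75 and MT2A from 0.94 to 1.43.

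No paired analysis was possible because replicate numbers were given in accession order and pair no tumors. Without read counts, low values such as those of MT1G carry an unknown counting error.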
